A study of Homo sapiens with 16 samples.

Results

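The 43 genes described here encode the machinery with which the endoplasmic reticulum (ER) imports, folds and discards proteins: chaperones, their co-factors, disulfide and prolyl isomerases, the translocon and signal peptidase, the degradation pathway known as ERAD, and the sensors of ER stress. They were taken as a list by gene name from the deposited table of 34687 named genes, and all 43 were present. The list was drawn up with earlier results of these data known. On the arrays 42 of the 43 were measured well enough to be tested, among 17565 genes tested in all. Total RNA of 2 established human lymphoma cell lines, HBL-1 and TMD8, both of the activated B-cell type of diffuse large B-cell lymphoma, had been hybridised to Illumina bead arrays after 8 h of treatment. Each line was given vehicle (4 arrays), MI-2 (3 arrays) or z-VRPR-fmk (1 array), so 16 arrays fell into 6 groups. MI-2 is a small molecule and z-VRPR-fmk a peptide, and both inhibit the protease MALT1. The labels state neither the doses nor what the vehicle was, nor whether a group's arrays stand for independent cultures. The p-values therefore speak of the scatter among these arrays alone, and that scatter may be technical.

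Secreted and membrane proteins enter the ER through the SEC61 channel, lose their signal peptide to signal peptidase, and fold with the help of HSPA5 (also called BiP), the central Hsp70 chaperone of the compartment. Proteins that fail to fold are handed to ERAD, in which the ubiquitin ligase SYVN1 and its partners send them to the proteasome. When unfolded proteins accumulate, ERN1, EIF2AK3 and ATF6 signal to the nucleus, and spliced XBP1 and cleaved ATF6 raise the genes of this machinery, a response that B cells use at full strength when they become antibody-secreting plasma cells.

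The ER stress response element, ERSE, through which ATF6 and XBP1 act, was searched for in the promoters because members of the list are known to move together through it. RefSeq promoter windows (build GRCh38.p14) from 250 bases before to 50 bases after the start were found for 38 of the 43 members, the first listed window being used where a gene had several. The letters searched on both strands were CCAAT and CCACG with 9 bases of any kind between them for ERSE, ATTGG and CCACG with 1 base of any kind between them for ERSE-II, and TGACGTGG for the core of the unfolded protein response element. ERSE stood in 8 of the 38 members' windows (21.1%) and in 22 of 27305 windows of all genes (0.0806%). ERSE-II stood in 3 of the 38 (7.89%) and in 0.0549% of all. The third motif stood in 1 of the 38 (2.63%) and in 0.795% of all. These motifs were defined in the literature on promoters of such genes, so the high share describes the list and is no independent finding. The bases before the start are shown for 4 of the members with the highest MI-2 values in HBL-1, those among them that hold a motif, 5′ to 3′ on the gene's strand, with the matched motif letters in capitals.
HSPA5, chr9:125241344-125241593, minus strand: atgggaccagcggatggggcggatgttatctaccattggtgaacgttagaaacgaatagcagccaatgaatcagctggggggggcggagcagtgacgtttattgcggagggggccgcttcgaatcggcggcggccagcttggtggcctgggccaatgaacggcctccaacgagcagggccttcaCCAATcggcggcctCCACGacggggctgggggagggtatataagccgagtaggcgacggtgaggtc
FICD, chr12:108515027-108515276, plus strand: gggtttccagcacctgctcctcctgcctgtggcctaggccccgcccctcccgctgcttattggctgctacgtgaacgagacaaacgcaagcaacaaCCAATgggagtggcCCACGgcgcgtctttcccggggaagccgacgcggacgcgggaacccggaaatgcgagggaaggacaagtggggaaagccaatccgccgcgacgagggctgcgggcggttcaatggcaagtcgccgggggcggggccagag
HYOU1, chr11:119057206-119057455, minus strand: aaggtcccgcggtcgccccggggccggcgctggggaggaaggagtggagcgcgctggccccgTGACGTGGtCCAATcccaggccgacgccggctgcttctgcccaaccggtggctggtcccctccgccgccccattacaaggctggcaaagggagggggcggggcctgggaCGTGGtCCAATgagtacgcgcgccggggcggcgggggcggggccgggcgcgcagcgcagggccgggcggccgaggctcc
SDF2L1, chr22:21642052-21642301, plus strand: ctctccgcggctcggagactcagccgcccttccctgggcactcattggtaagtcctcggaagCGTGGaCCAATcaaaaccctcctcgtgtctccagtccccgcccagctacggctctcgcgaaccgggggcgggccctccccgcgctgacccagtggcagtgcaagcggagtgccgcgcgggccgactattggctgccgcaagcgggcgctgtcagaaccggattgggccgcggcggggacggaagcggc
HSPA5 and FICD carried an ERSE, at positions -66 to -48 and -154 to -136 from the start. HYOU1 held 2 copies of ERSE-II on the opposite strand, the first of which overlapped the TGACGTGG match, and SDF2L1 held 1. The 9-base spacers of ERSE differed between members, as the matches show when each is read in the motif's direction.
CALR: CCAATgatggtcgaCCACG
CANX: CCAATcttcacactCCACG
CRELD2: CCAATccgagttcgCCACG
ERO1LB: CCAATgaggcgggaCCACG
FICD: CCAATgggagtggcCCACG
HSP90B1: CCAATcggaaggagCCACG
HSP90B1, second match: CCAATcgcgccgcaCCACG
HSPA5: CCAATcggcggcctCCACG
XBP1: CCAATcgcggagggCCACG
A match is a description of letters and not a binding site, and a window without a match, as for ARMET and DNAJB9, says only that these letters are not in it.

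Levels are given as background-corrected, quantile-normalized log2 intensity, in which a difference of 1 is a doubling, and a level of one gene cannot be set against that of another. The arrays had median raw intensities of 82.5 to 103 and detected between 34.1% and 40.8% of their probes, with the lowest shares on the HBL-1 vehicle and MI-2 arrays numbered 2. All 8 B-cell markers were tested and 7 were detected on every array. Of 9 plasma-cell markers 8 were tested and 7 detected on every array, while of 9 T-cell, 6 NK-cell, 7 myeloid, 5 erythroid, 5 epithelial and 6 fibroblast markers 4, 2, 1, 3, 3 and 2 were tested and none was detected on every array. A marker present in 1 line only cannot meet that rule. Between vehicle arrays, TMD8 less HBL-1, epithelial CDH1 and EPCAM differed by 4.88 and -3.62 on the log2 scale. The NK-cell marker PRF1 differed by -1.91 and the T-cell marker CD5 by 1.47. In RNA of whole cultures, fewer cells of a kind and less RNA per cell cannot be told apart.

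Most members were detected on all 16 arrays. PDIA3, a disulfide isomerase of glycoprotein folding, was not well above background on any array (levels of 4.21 to 4.61) and was not tested. SEL1L, the adaptor of SYVN1, was detected on all 8 TMD8 arrays but on 1 of 4 vehicle, 2 of 3 MI-2 and 0 of 1 z-VRPR-fmk arrays of HBL-1. DERL3, a derlin of ERAD, was detected on 13 arrays, FICD and ERO1LB on 14 and SSR3 on 15. The levels of these genes lie close to background.

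In HBL-1 the ER genes lay higher after MI-2 as a group, although no single gene passed the test. Since the list was drawn up with earlier results of these data known, its excess over all genes is no independent finding. Of the 42 members 40 had a log2 change above 0, against 46.2% of all genes, but with arrays scaled to their medians, which moved the median of all genes to -0.33, 12 members lay above 0 and 34 above that median. The member median was 0.35, against -0.02 over all genes, or -0.10 against -0.33 with arrays scaled to their medians. With limma and Benjamini-Hochberg adjustment 0 members were called, as against 2 of 17565 genes (0.0114%), VPREB3 and SLC5A5, both lower and named after their values were seen. At an unadjusted p under 0.05, 21 members were higher and 0 lower, where 2.58% of all genes were higher and 2.76% lower, but with arrays scaled to their medians 0 members and 0.131% of all genes were higher. All 3 MI-2 arrays lay above all 4 vehicle arrays for 19 members, against 2.64% of all genes. Plasma-cell marker levels, whose summed linear value was 2816 to 3682 on the vehicle and 3142 to 3920 on the MI-2 arrays, overlapped between the groups, and their part in the result was not tested.

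**Figure D1:**
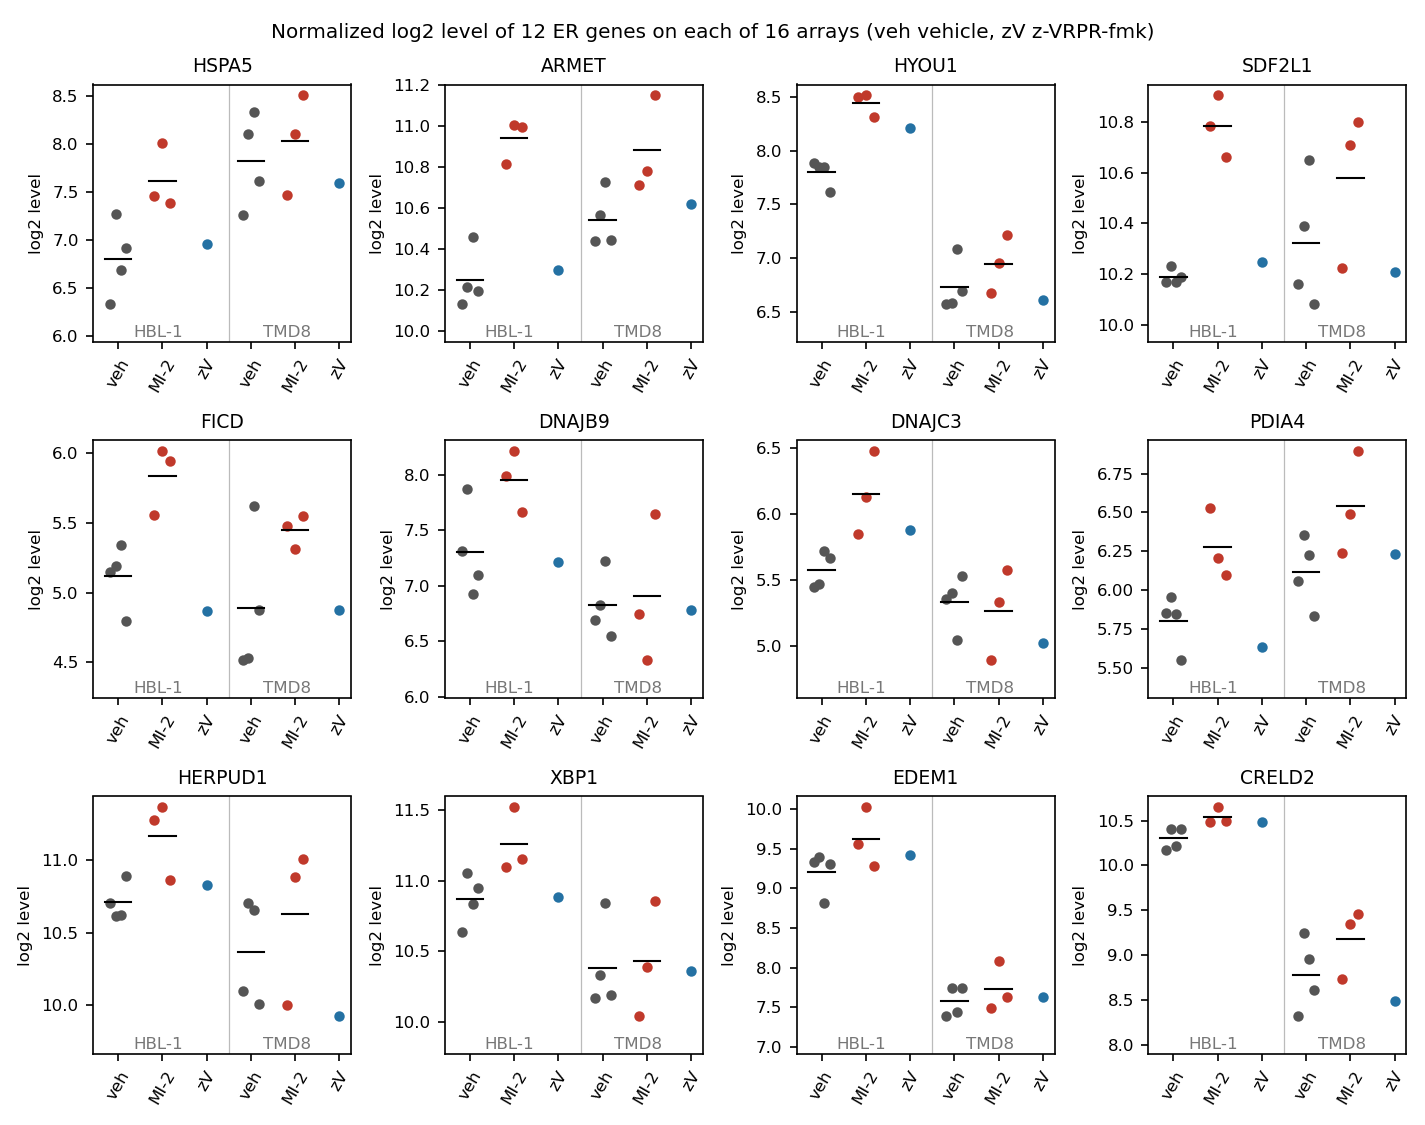
Normalized log2 level of 12 ER genes on each of the 16 arrays (vertical axes, a scale for each gene), by line and treatment (horizontal axis), where points are arrays and short bars are means of groups with more than 1 array. In HBL-1 every MI-2 array of ARMET, HYOU1, SDF2L1, FICD and HSPA5 lies above every vehicle array on this scale, while the TMD8 groups of these genes overlap.

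The highest single value was that of a chaperone. HSPA5 levels in HBL-1 were 6.33, 7.27, 6.68 and 6.91 on the 4 vehicle arrays and 7.45, 8.01 and 7.39 on the 3 MI-2 arrays. The groups did not overlap, yet vehicle array 2 reached almost the lowest MI-2 array, and the log2 change of 0.82 (SE 0.28, 1.76-fold) had an adjusted p of 0.852 in limma. That fit leaves out the pairing of equally numbered arrays, between which HSPA5 differed by 1.12, 0.74 and 0.71. ARMET, now called MANF, a secreted and ER-resident protein that binds HSPA5, measured 10.14, 10.21, 10.46 and 10.20 with vehicle and 10.82, 11.01 and 10.997 with MI-2. Each MI-2 array lay above each vehicle array by a gap wider than the spread within either group. Its change of 0.69 (SE 0.13, 1.61-fold) ranked 4 of 17565 genes by p and had an adjusted p of 0.372 in limma. With eBayes' trend and robust options, 1 of 25 alternatives tried, that adjusted p was 0.036, and over all 25 it ran from 0.036 to 0.9999.

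HYOU1, a large Hsp70-like chaperone that also exchanges nucleotide on HSPA5, stood at 7.88, 7.85, 7.85 and 7.61 with vehicle and 8.50, 8.52 and 8.31 with MI-2. The lowest MI-2 array was well above the highest vehicle array, and the change was 0.64 (SE 0.15). A second HYOU1 probe gave 0.46. SDF2L1, which works with HSPA5 and its J-domain partner DNAJB11, had 4 vehicle values of 10.17, 10.23, 10.17 and 10.19 and 3 MI-2 values of 10.78, 10.91 and 10.66. Vehicle arrays of SDF2L1 were closely grouped and the MI-2 arrays lay apart from them, with a change of 0.60 (SE 0.15). The lectin chaperone CALR (change 0.46) and the ER-resident Hsp90, HSP90B1 (0.31), were also apart between groups. CRELD2, a protein with disulfide isomerase activity that is secreted and held in the ER, gave a change of 0.24. CANX, the membrane-bound partner of CALR, gave 0.31 with overlapping groups. On this scale all 8 chaperones were above 0, 6 of them at an unadjusted p under 0.05, with a median of 0.53.

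All 5 Hsp70 co-factors lay above 0 and at an unadjusted p under 0.05, with a median change of 0.58. FICD, the enzyme that attaches AMP to HSPA5 and removes it, measured 5.15, 5.19, 5.34 and 4.80 on the vehicle and 5.56, 6.02 and 5.94 on the MI-2 arrays of HBL-1. The groups were apart, with a change of 0.72 (SE 0.22), in a gene near the detection limit. DNAJB9, a J-domain protein of the ER lumen, gave 7.31, 7.87, 6.93 and 7.10 with vehicle and 7.99, 8.21 and 7.66 with MI-2. Vehicle array 2 lay above MI-2 array 3, so the groups overlapped, and the change was 0.65 (SE 0.27). DNAJC3, a J-domain co-chaperone also known to inhibit EIF2AK3, rested at 5.45, 5.47, 5.72 and 5.67 with vehicle and at 5.85, 6.13 and 6.48 with MI-2. These groups were apart and the change was 0.58 (SE 0.18). DNAJB11 (0.38) and the nucleotide exchange factor SIL1 (0.34, and 0.54 by a second probe) had smaller changes with groups apart.

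Among the isomerases and oxidases 5 of 6 tested lay above 0, 1 of them at an unadjusted p under 0.05, and the median was 0.30. PDIA4, a disulfide isomerase, measured 5.86, 5.96, 5.85 and 5.55 with vehicle and 6.53, 6.21 and 6.10 with MI-2. Its groups were apart, with a change of 0.47 (SE 0.17). PDIA6 and P4HB, further disulfide isomerases, gave 0.37 and 0.20, and the prolyl isomerase FKBP11 gave 0.27. The 2 oxidases that recharge the isomerases differed in sign. ERO1LB gave 0.34, while ERO1L gave -0.13 (SE 0.14), the lowest value of the 42, from 6.56, 6.95, 6.67 and 6.49 with vehicle and 6.69, 6.40 and 6.52 with MI-2. Those groups overlapped.

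All 9 degradation genes lay above 0, 4 at an unadjusted p under 0.05, with a median of 0.36. HERPUD1, a membrane protein that gathers the SYVN1 complex, measured 10.71, 10.62, 10.62 and 10.89 with vehicle and 11.28, 11.37 and 10.86 with MI-2. MI-2 array 3 lay just below vehicle array 4, and the change was 0.46 (SE 0.23), or 0.24 by a second probe. OS9, a lectin that delivers glycoproteins to the ligase, gave 0.44 with groups apart, and SYVN1 itself gave 0.35, also apart. EDEM1 and EDEM2, which trim mannose from proteins bound for disposal, gave 0.42 and 0.37. Of the derlins, which form the exit channel, DERL2 gave 0.36 and DERL1 0.07. DERL3 measured 5.48, 4.90, 5.08 and 4.96 with vehicle and 5.09, 5.12 and 5.58 with MI-2, a change of 0.16 (SE 0.19) with overlapping groups. SEL1L, mostly undetected in this line, gave 0.09.

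The import and export genes had smaller values, with 9 of 10 above 0, 4 at an unadjusted p under 0.05 and a median of 0.21. SEC24D, a cargo adaptor of the COPII coat that buds vesicles from the ER, stood out with 6.76, 6.32, 6.75 and 6.64 on the vehicle and 7.09, 7.27 and 7.11 on the MI-2 arrays. All 3 MI-2 arrays were above the vehicle arrays, with a change of 0.54 (SE 0.19). SEC61A1, the pore of the translocon, gave 0.38, and its small subunits SEC61B and SEC61G gave 0.19 and 0.09. Subunits of the translocon-associated complex gave 0.34 for SSR1, 0.16 for SSR2 and 0.24 for SSR3. Signal peptidase subunits differed, with 0.31 for SPCS3, 0.11 for SPCS2 and -0.06 (SE 0.11) for SPCS1. SPCS1 measured 11.14, 11.21, 11.09 and 11.15 with vehicle and 11.09, 11.07 and 11.10 with MI-2, with overlapping groups.

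The 3 sensors and XBP1, the transcription factor downstream of ERN1, had a median of 0.22, with 4 of 4 above 0 and 1, EIF2AK3, at an unadjusted p under 0.05. XBP1, whose array level does not separate the spliced from the unspliced mRNA, measured 10.64, 11.06, 10.84 and 10.95 with vehicle and 11.10, 11.52 and 11.15 with MI-2. The groups were apart by a narrow margin, with a change of 0.39 (SE 0.20), or 0.31 by a second probe. EIF2AK3 gave 0.47 (SE 0.22), with vehicle arrays at 5.57, 5.14, 5.73 and 5.60 and MI-2 arrays at 5.46, 6.51 and 5.97. MI-2 array 2 was the highest of all and MI-2 array 1 lay within the vehicle range. ERN1 gave 0.06 and ATF6 0.04.

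With arrays scaled to their medians HSPA5, FICD, ARMET, DNAJB9 and HYOU1 stayed above 0 in HBL-1, at 0.35, 0.40, 0.22, 0.18 and 0.16, whereas HERPUD1 (-0.01), XBP1 (-0.08) and DERL3 (-0.10) lay below 0 with the median of all genes at -0.33. Within the 3 pairs of equally numbered HBL-1 arrays, 37, 37 and 39 of 42 members were higher with MI-2, and the member medians were 0.32, 0.32 and 0.37. The median of all genes was -0.01 in each pair. With the replicate number as a block HSPA5 gave 0.86 with an SE of 0.12, and still 0 members were called in limma. In that block fit 28 members were higher at an unadjusted p under 0.05, against 3.54% of all genes. Without the block, leaving out MI-2 array 2 of HBL-1 lowered the 21 members at an unadjusted p under 0.05 to 13, against 2.17% of all genes.

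**Figure D2:**
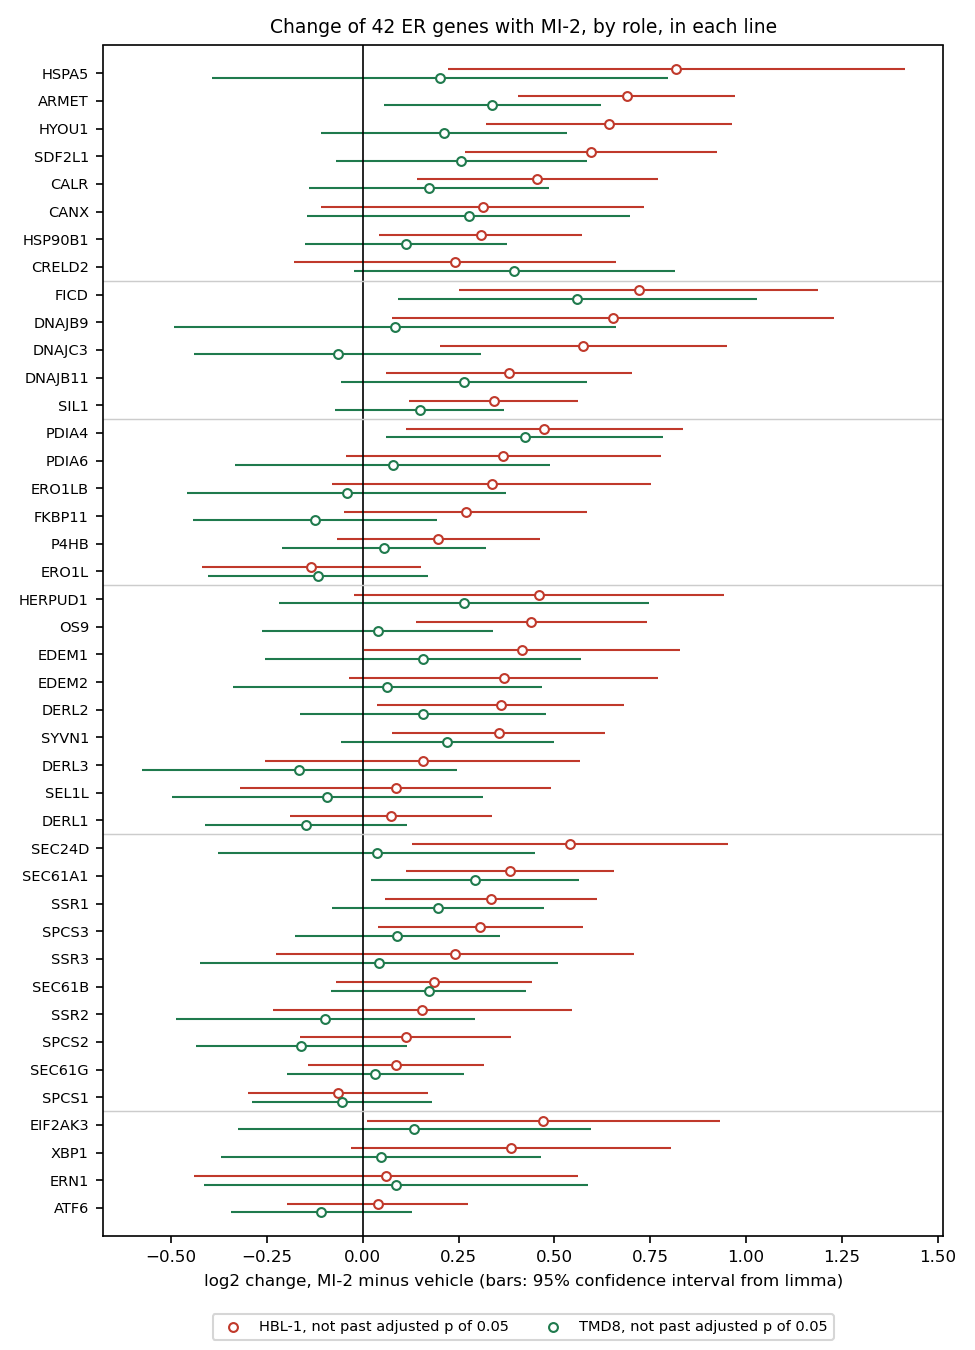
Log2 change with MI-2 (horizontal axis) of the 42 tested ER genes (vertical axis, grouped by role), as limma's estimate (points) with its 95% confidence interval (bars), in HBL-1 and TMD8. On this scale 40 of 42 HBL-1 points and 31 of 42 TMD8 points lie above 0, against 46.2% and 47.8% of all genes, and none of the 42 passes an adjusted p of 0.05. When arrays are scaled to their medians 12 and 6 members lie above 0, against 14.2% and 20.3% of all genes.

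In TMD8 the MI-2 values of most of these genes were smaller, a difference that passed the test for none of them. Of the 42 members 31 were above 0, against 47.8% of all genes, with a median of 0.09 against -0.01, or -0.13 against -0.18 with arrays scaled to their medians. Under that scaling 6 members lay above 0 and 26 above that median. In limma 0 members were called, as were 0 of all 17565 genes (0%). At an unadjusted p under 0.05, 4 members were higher and 0 lower, where 2.16% of all genes were higher and 2.48% lower. With arrays scaled to their medians 0 members were higher, against 0.233% of all genes. The groups were apart for 1 member, SEC61B, against 2.56% of all genes. The values depended on single arrays. Without MI-2 array 3 the median was 0.02 and 0 members were higher at an unadjusted p under 0.05, against 2.68% of all genes. Without MI-2 array 1 the median was 0.19 and 10 were, against 2.63%. These fits kept the vehicle array of the same number. Between TMD8 arrays of equal number the member medians were 0.05, 0.07 and 0.17, with 22, 25 and 33 of 42 members higher. Summed plasma-cell marker levels were 5126 to 6361 with vehicle and 5810 to 6361 with MI-2, and their part in the result was not tested.

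The 5 highest changes in TMD8 were those of FICD, PDIA4, CRELD2, ARMET and SEC61A1. FICD measured 4.52, 4.53, 5.62 and 4.87 on the vehicle and 5.47, 5.32 and 5.55 on the MI-2 arrays. Vehicle array 3 was above every MI-2 array while the other vehicle arrays were below, and the change was 0.56 (SE 0.22), in a gene detected on 2 of the 4 vehicle arrays. PDIA4 gave 6.06, 6.36, 6.23 and 5.83 with vehicle and 6.24, 6.49 and 6.90 with MI-2, a change of 0.42 (SE 0.17) with overlapping groups. CRELD2 ran at 8.33, 9.24, 8.96 and 8.61 with vehicle and 8.74, 9.35 and 9.46 with MI-2, a change of 0.40 (SE 0.20). ARMET stood at 10.44, 10.57, 10.73 and 10.45 with vehicle and 10.71, 10.78 and 11.15 with MI-2. The highest vehicle array of ARMET lay just above the lowest MI-2 array, and the change was 0.34 (SE 0.13) with an adjusted p of 0.999 in limma. SEC61A1 gave 0.29 (SE 0.13).

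HSPA5 in TMD8 measured 7.26, 8.10, 8.33 and 7.61 with vehicle and 7.46, 8.10 and 8.51 with MI-2. The groups overlapped over most of their range, and the change of 0.20 (SE 0.28) became -0.04 without MI-2 array 3 and -0.06 with arrays scaled to their medians. Between TMD8 arrays of equal number HSPA5 differed by 0.21, 0.01 and 0.18. HERPUD1 measured 10.10, 10.70, 10.66 and 10.01 with vehicle and 9.9998, 10.89 and 11.01 with MI-2, a change of 0.26 (SE 0.23) that was 0.08 without MI-2 array 3 and 0.58 without MI-2 array 1. XBP1, at 10.17, 10.33, 10.84 and 10.19 with vehicle and 10.04, 10.39 and 10.85 with MI-2, gave 0.05 (SE 0.20). The lowest changes were those of DERL3 (-0.17), SPCS2 (-0.16) and DERL1 (-0.15), and the 3 had standard errors of 0.19, 0.13 and 0.12. By role the median was 0.23 for chaperones, 0.15 for Hsp70 co-factors, 0.06 for degradation genes, 0.04 for import and export, 0.01 for isomerases and oxidases and 0.07 for sensors.

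**Figure D3:**
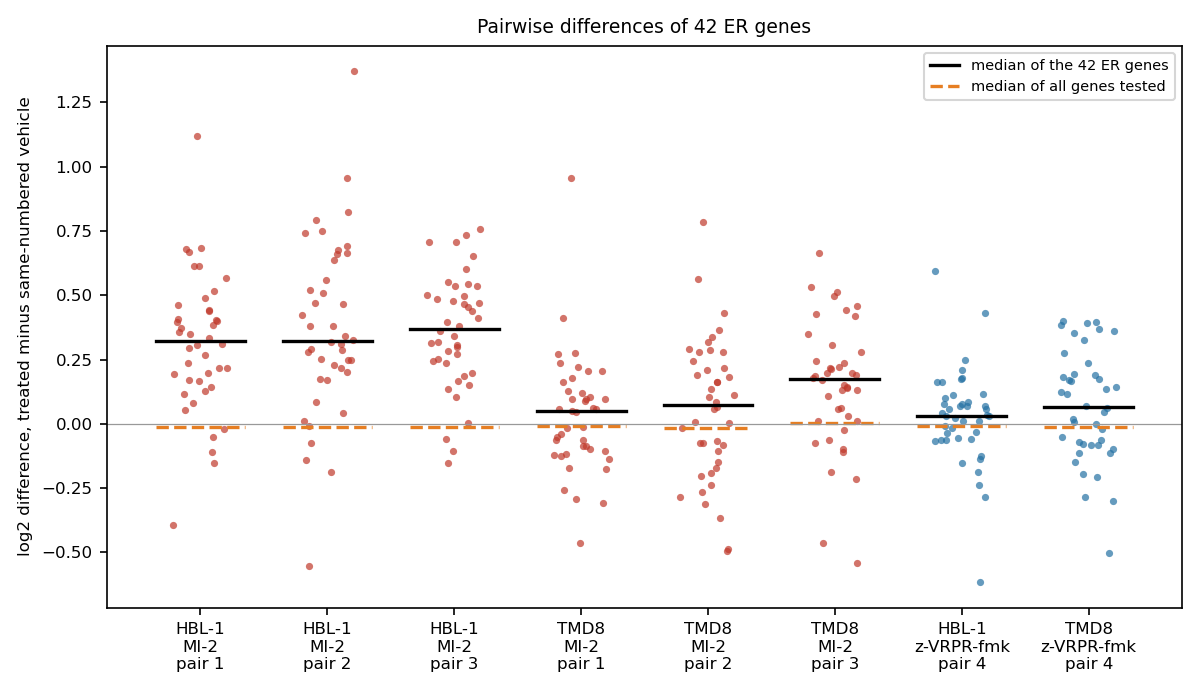
Log2 difference of each of the 42 ER genes (points, vertical axis) between a treated array and the vehicle array of the same line and number, for the 6 MI-2 and 2 z-VRPR-fmk pairs (horizontal axis), with the median of the 42 genes (solid) and of all genes tested (dashed). On the quantile-normalized scale the ER median is 0.32, 0.32 and 0.37 in the HBL-1 MI-2 pairs, 0.05, 0.07 and 0.17 in the TMD8 MI-2 pairs and 0.03 and 0.06 in the z-VRPR-fmk pairs.

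Whether the MI-2 changes of these genes differed between TMD8 and HBL-1 was tested with an interaction term, given here as TMD8 less HBL-1. With limma 0 members were called, and 0% of all genes. The median of the differences was -0.21, against 0.01 over all genes, and 4 of 42 were above 0, where 51.5% of all genes were. With arrays scaled to their medians that median was -0.02 where all genes stood at 0.15. Under that scaling 18 members lay above 0, against 72.4% of all genes, and 6 members lay above the median of all genes. At an unadjusted p under 0.05 there was 1 member, DNAJC3, with a difference of -0.64 (SE 0.25, 95% interval -1.17 to -0.11), against 2.09% of all genes lower and 1.99% higher. With the replicate number as a block there were 9, all lower in TMD8, and 0 called. In that fit 546 of all 17565 genes were lower and 527 higher at an unadjusted p under 0.05. DNAJC3 measured 5.36, 5.40, 5.04 and 5.53 with vehicle and 4.89, 5.33 and 5.58 with MI-2 in TMD8, where the groups overlapped. For HSPA5 the difference was -0.62 (95% interval -1.46 to 0.23), for DNAJB9 -0.57 (-1.38 to 0.25) and for ARMET -0.35 (-0.75 to 0.05). HERPUD1 gave -0.19 (-0.88 to 0.49), XBP1 -0.34 (-0.93 to 0.25) and DERL3 -0.32 (-0.90 to 0.26). Of the 4 above 0, ERO1L gave 0.02 and SPCS1 0.01. The highest differences, 0.15 for CRELD2 and 0.03 for ERN1, were well within their standard errors of 0.28 and 0.33.

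Averaged over both lines, 0 members were called in limma, against 1 of 17565 genes (0.00569%), VPREB3, which was lower. At an unadjusted p under 0.05, 18 members were higher and 0 lower, where 2.57% of all genes were higher and 3.17% lower. But with arrays scaled to their medians 1 member was higher, against 0.142% of all genes. The median was 0.24 against -0.01, or -0.11 against -0.25 with arrays scaled to their medians. ARMET gave 0.51 (SE 0.09), the second smallest p of all genes, with an adjusted p of 0.353 in limma. That adjusted p was 0.0167 with trend and robust eBayes, the lowest of 24 alternatives, in which the highest was 0.847. FICD gave 0.64 (SE 0.16), HSPA5 0.51 (SE 0.20), PDIA4 0.45 (SE 0.12) and HYOU1 0.43 (SE 0.11). HERPUD1 gave 0.36 (SE 0.16), XBP1 0.22 (SE 0.14) and DERL3 -0.0046 (SE 0.14). The lowest were ERO1L at -0.13 (SE 0.10), SPCS1 at -0.06 (SE 0.08) and DERL1 at -0.04 (SE 0.09).

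With z-VRPR-fmk, a single array per line, the effect was taken as equal in the lines, and it shares its vehicle arrays with the MI-2 comparisons. No member was called in limma, against 1 of 17565 genes, TM2D3 (0.00569%, named after its value was seen), and the member median was 0.00, as over all genes, or -0.10 against -0.07 with arrays scaled to their medians. Of the 42 members 21 lay above 0, against 49.3% of all genes. At an unadjusted p under 0.05 there was 1 member lower and 0 higher, against 1.92% of all genes lower and 2.28% higher. That member was DERL2, a derlin, at 6.97 on the HBL-1 array against vehicle values of 7.39, 7.65, 7.35 and 7.21, and at 8.38 on the TMD8 array against 8.49, 8.70, 8.83 and 8.47. Both z-VRPR-fmk arrays lay below all vehicle arrays of their line, as for 4.73% of all genes, with a change of -0.34 (SE 0.15). Against the vehicle array of the same number the differences were -0.24 in HBL-1 and -0.10 in TMD8, and with the replicate number as a block the change was -0.17 (SE 0.13) and 0 members were at an unadjusted p under 0.05. HSPA5, at 6.96 in HBL-1 and 7.59 in TMD8, gave -0.04 (95% interval -0.64 to 0.56), and ARMET, at 10.30 and 10.62, gave 0.06 (-0.22 to 0.34). HYOU1 was at 8.21 in HBL-1, above all 4 vehicle arrays there, and at 6.62 in TMD8, within the vehicle range. The highest changes were 0.41 (SE 0.24) for ERN1, 0.27 (SE 0.16) for FKBP11, 0.21 (SE 0.22) for SSR3, 0.20 (SE 0.22) for EIF2AK3 and 0.19 (SE 0.15) for OS9. The lowest after DERL2 were -0.16 (SE 0.24) for HERPUD1 and -0.15 (SE 0.15) for SEC61A1. Both are means of opposite signs, since against the vehicle mean HERPUD1 was at 0.12 in HBL-1 and -0.44 in TMD8, and SEC61A1 at 0.18 and -0.48. DERL3 gave 0.16 and XBP1 -0.00.

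Set directly against each other over both lines, at doses that are not given, MI-2 and z-VRPR-fmk did not differ past the threshold for any member in limma, and 3 of 17565 genes did (0.0171%), all higher with MI-2. Those genes were TM2D3, ANKRD37 and ZC3H12A, named after their values were seen. The MI-2 arrays were numbered 1 to 3 and the z-VRPR-fmk arrays 4. In a fit without the replicate block, as for the single-gene values below, compound and array number cannot be told apart. At an unadjusted p under 0.05, 11 members were higher with MI-2 and 0 lower, where 3.16% of all genes were higher and 4.35% lower. With the replicate block 5 members were higher, against 1.8% of all genes. With arrays scaled to their medians 1 was, against 0.182%. Of the 42 members 34 lay above 0, against 49.1% of all genes. With arrays scaled to their medians 17 members did, against 23.9% of all genes, and 30 members lay above the median of all genes. The member median was 0.16, against -0.00 over all genes, and -0.05 against -0.17 with arrays scaled to their medians. FICD was 0.77 higher with MI-2 (SE 0.23, 95% interval 0.28 to 1.25) and DERL2 0.60 (SE 0.16, 0.26 to 0.93). The MI-2 arrays of 13 members lay above the z-VRPR-fmk array in both lines, against 6.43% of all genes. For both genes just named all MI-2 arrays lay above the z-VRPR-fmk array of their line. HSPA5 was 0.55 higher (-0.07 to 1.17), HERPUD1 0.52 (0.00 to 1.04), SEC61A1 0.49 (0.16 to 0.82) and ARMET 0.45 (0.16 to 0.74). The values of SEC61A1, HERPUD1 and HSPA5 leaned on single z-VRPR-fmk arrays. Without the TMD8 array they were at 0.16, 0.24 and 0.35, and without the HBL-1 array at 0.82, 0.80 and 0.74. With each array left out in turn ARMET ran from 0.38 to 0.49, FICD from 0.65 to 0.89 and DERL2 from 0.50 to 0.69. XBP1 gave 0.22 and DERL3 -0.16. The lowest values were ERN1 (-0.34, -0.86 to 0.18), FKBP11 (-0.20, and -0.01 without the HBL-1 z-VRPR-fmk array) and ERO1L (-0.19).

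Between the lines without treatment, single members differed by as much as -1.64 and 1.22 on the log2 scale. Between vehicle arrays 7 members were higher in TMD8 and 10 lower with limma's adjusted p under 0.05, against 18.6% of all genes in each direction. Of the 42 members 18 lay above 0, against 50.6% of all genes. The 17 of 42 called were close to the 37.2% of all genes that differed between the lines, so the count says nothing particular about the list. With arrays scaled to their medians 9 of 42 members were called, 4 higher and 5 lower, against 22.8% of all genes.

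Among chaperones, CANX was higher in TMD8, at 8.67, 9.24, 9.39 and 8.88 against 7.96, 8.06, 7.62 and 7.72 in HBL-1. The lines did not overlap and differed by 1.21 (SE 0.18, 2.31-fold, limma adjusted p 4.7e-05). HSPA5 was also higher in TMD8, by 1.03 (SE 0.26, 2.04-fold, adjusted p 0.00447), with the highest HBL-1 array just above the lowest TMD8 array. CRELD2 and HYOU1 ran the other way. CRELD2 was at 8.33, 9.24, 8.96 and 8.61 in TMD8 and 10.18, 10.40, 10.22 and 10.41 in HBL-1, a difference of -1.52 (SE 0.18, adjusted p 3.64e-06). HYOU1 was at 6.58, 6.59, 7.09 and 6.70 in TMD8 and 7.88, 7.85, 7.85 and 7.61 in HBL-1, with a difference of -1.06 (SE 0.14, adjusted p 1.05e-05), and its second probe gave -1.10. ARMET (0.29, adjusted p 0.0756), SDF2L1 (0.13), HSP90B1 (0.11) and CALR (-0.00) did not pass.

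The degradation genes held the extremes of the list. EDEM1 was lower in TMD8, at 7.39, 7.74, 7.44 and 7.74 against 9.33, 9.39, 8.81 and 9.31, a difference of -1.64 (SE 0.18, limma adjusted p 1.24e-06) with no overlap. DERL2 was higher, at 8.49, 8.70, 8.83 and 8.47 against 7.39, 7.65, 7.35 and 7.21, by 1.22 (SE 0.14, adjusted p 2.07e-06), again with no overlap. SEL1L was higher in TMD8 by 0.92 (SE 0.18, adjusted p 0.000475), at 5.44, 5.72, 5.73 and 5.38, while in HBL-1 it was detected on 1 of 4 vehicle arrays, at 4.39, 4.599, 4.55 and 5.06. With most HBL-1 arrays not above background, the size of that difference is uncertain. HERPUD1 (-0.34, adjusted p 0.235) and DERL3 (-0.34, adjusted p 0.158) did not pass.

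The import genes were split between subunits of the same complexes. SEC61B (0.55, SE 0.11) and SEC61G (0.52, SE 0.10) were higher in TMD8, while SEC61A1 gave -0.22 and did not pass. SSR1 was higher (0.50, SE 0.12) and SSR2 lower (-0.79, SE 0.17), although a dimmer SSR2 probe gave 0.09. SPCS3 (-0.68, SE 0.12) and SPCS2 (-0.33, SE 0.12) were lower in TMD8 and SPCS1 gave 0.03. SEC24D (-0.57, SE 0.18), DNAJB11 (-0.41, SE 0.14), ERO1L (-0.47, SE 0.13) and XBP1 (-0.49, SE 0.18) were lower too. XBP1 passed narrowly (adjusted p 0.0449 in limma) and in 13 of 25 alternatives. The calls of CANX, HSPA5, DERL2, CRELD2, EDEM1, HYOU1 and SPCS3 held in all 25, that of SPCS2 in 16 and that of DNAJB11 in 19. With arrays scaled to their medians 4 members were called higher and 5 lower. Most of the calls of SEL1L, SEC61B, SEC61G and SSR1 were therefore lost under that scaling. So were most of those of SSR2, SPCS2, SEC24D, DNAJB11, ERO1L and XBP1.

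**Figure D4:**
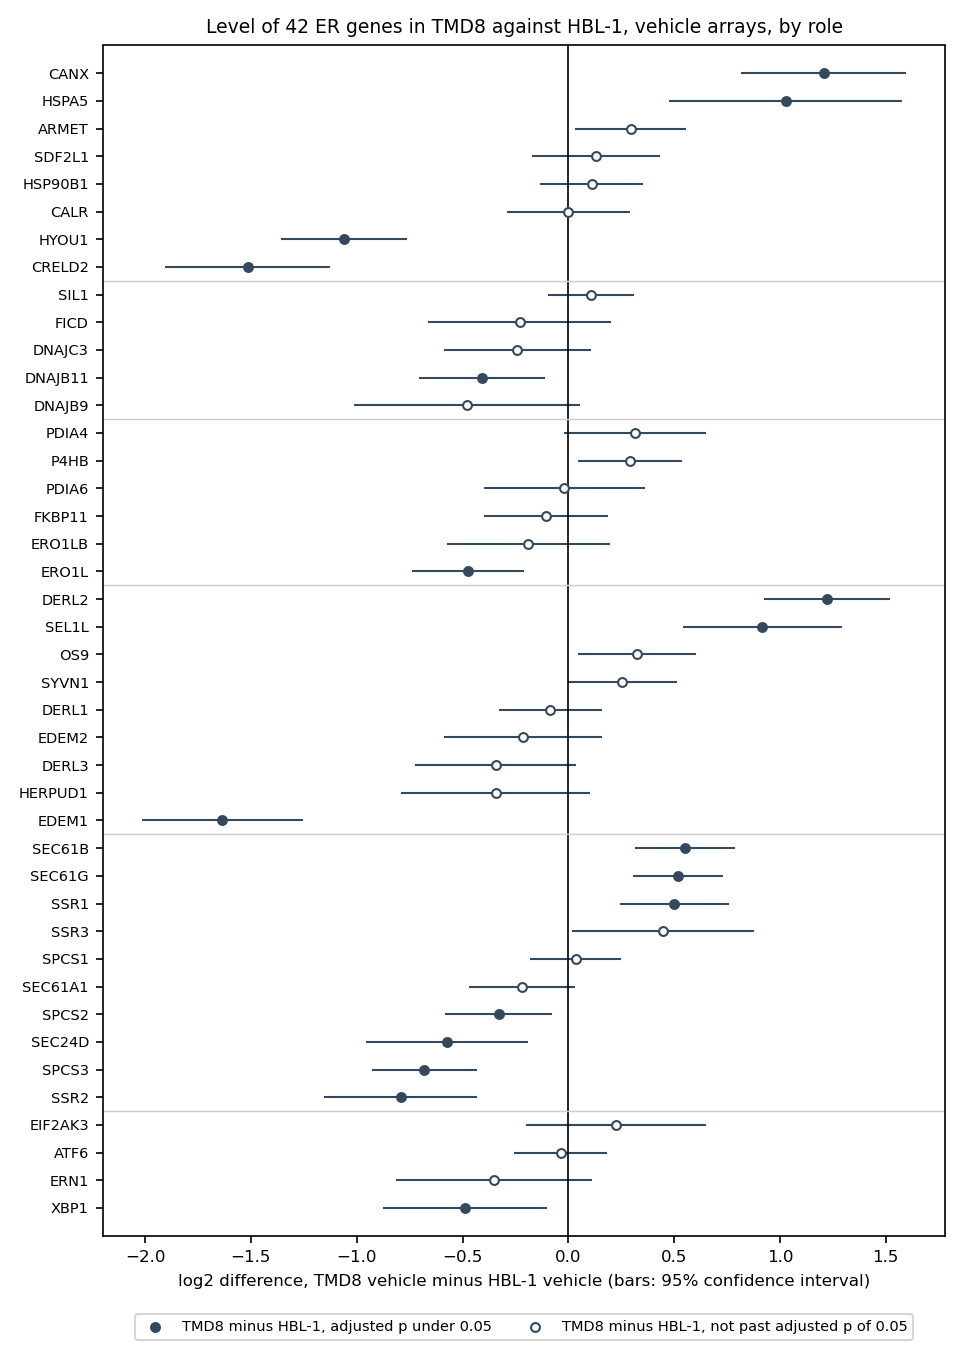
Log2 difference of the 42 ER genes (vertical axis, grouped by role) between TMD8 and HBL-1 vehicle arrays (horizontal axis), as limma's estimate with its 95% confidence interval, filled where the adjusted p is under 0.05. The filled points run from EDEM1 at -1.64 to DERL2 at 1.22, with 7 above and 10 below 0.

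Further genes of the same pathways were counted from lists that hold none of the members. SEC63, STT3B and CREB3L2 each stand in more than 1 of these lists and are counted in each. After MI-2 in HBL-1 0 of them were called in limma. On this scale 16 of 24 other sensors and effectors of the unfolded protein response were above 0 (median 0.13, 6 higher and 1 lower at an unadjusted p under 0.05), 18 of 21 N-glycosylation genes (0.18), 17 of 23 genes of COPII and ER-to-Golgi transport (0.14), 23 of 29 further folding enzymes (0.11), 12 of 19 genes of the signal recognition particle and further translocon (0.11) and 18 of 24 further ERAD genes (0.08). The cytosolic heat shock genes, a chaperone system outside the ER, had 5 of 21 above 0 and a median of -0.09. All of these medians lay below the 0.35 of the members, which had been listed with earlier results of these arrays known.

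Between the lines at rest the counts of each list are to be read against the 18.6% of all genes called in each direction, to which several of them are close. Of 24 further ERAD genes 12 were higher in TMD8 and 3 lower in limma, among them UBE2J1, a ubiquitin-conjugating enzyme of the ER membrane, at 3.55 and ERLIN2 at 1.52. Of 21 N-glycosylation genes 0 were higher and 9 lower, such as PRKCSH, a glucosidase subunit (-0.51), and DDOST, a subunit of oligosaccharyltransferase (-0.50). Folding enzymes outside the list had 3 of 29 higher and 8 lower, with the chaperone CNPY3 at -2.34 and PDIA5 at -0.997, and transport genes had 8 of 23 higher and 3 lower, with the retrieval receptor KDELR1 at 1.83 and its relative KDELR2 at -0.77. Of 19 genes of signal recognition and further translocon 5 were higher, such as SEC62 at 1.35, and 6 lower, such as its partner SEC63 at -1.13. Other effectors of the unfolded protein response had 6 of 24 higher and 9 lower, with ATF3 at 3.28 and PPP1R15A, which reverses the EIF2AK3 signal, at 2.32 higher in TMD8, and MBTPS1, the protease that cleaves ATF6, at -1.65. Plasma-cell markers split as well, 4 of 8 higher and 3 lower, with PRDM1 at 3.22 and CD38 at -2.51, and their part in these differences was not tested.

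Split by the promoter motifs shown above, the 11 members with any of the 3 motifs had a median MI-2 change of 0.46 in HBL-1 (0.24 to 0.82) and the 27 tested members with none a median of 0.34 (-0.13 to 0.69), so the ranges overlapped. In TMD8 the medians were 0.21 and 0.08. The 8 members with ERSE, taken by themselves, had a median of 0.36 in HBL-1, near that of members with no motif, and of 0.19 in TMD8. No test was made of this split, which was not repeated with arrays scaled to their medians.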

How the data were processed

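The deposited files held, for each of 16 Illumina arrays, the mean bead intensity and a detection p-value per probe, not yet normalized per the file headers, and a table of the authors' log2 values with one entry per gene name. The submitters' processing notes list Partek and say nothing of what it did. Probes had no gene names, so they were named by matching values across arrays to the authors' deposited log2 values, within 0.02. The intensity of a probe, or the mean of adjacent probes, was first put on the authors' scale by a rising curve for each array. These curves were fitted to the same deposited values, so part of the closeness comes from the fit. Of 34687 names 34655 matched, 26191 to 1 probe and 8464 to the mean of several, against 4 after arrays were shuffled. All 43 members matched.

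Intensities were corrected and quantile-normalized with limma 3.58.1 (neqc, offset 16, background inferred from the detection p-values) in R 4.3.3. A probe was kept if 3 or more arrays had a detection p under 0.05, and the passing probe with the highest mean stood for a gene, leaving 17565 genes. Limma's lmFit and eBayes were fitted over 6 group means and all 16 arrays, with Benjamini-Hochberg adjustment over all genes and a threshold of 0.05. For z-VRPR-fmk, with 1 array a line, 1 effect was fitted for both lines. Precision is bounded by how few arrays there are. The scripts were tested on simulated data.

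Arrays of the same number within a line deviated together (correlations of 0.225, 0.249 and 0.285 in HBL-1 and of 0.292, 0.156 and 0.309 in TMD8), so the numbers pair vehicle and MI-2 arrays. The main fits leave this pairing out, and the fits with the replicate number as a block take it in. Across lines the correlations of vehicle arrays ran from -0.10 to 0.16, and the main fits did not take equal numbers as pairs. The block fit between the lines at rest did, by giving equal numbers of both lines a shared term.

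In each comparison full values went to members past the threshold, filled to the 5 highest and 3 lowest changes, and always to HSPA5, ARMET, HERPUD1, XBP1 and DERL3. Array values of further members, such as SDF2L1, DNAJC3, PDIA4, SEC24D and EIF2AK3 in HBL-1, were added after their values were seen. Members and lists were chosen with earlier results of these data known. The alternatives were the authors' values, median scaling, other probe filters and gene summaries, another eBayes, a block, the groups compared alone, and each array left out.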

Additional observations from a re-analysis of the deposited data

Results flagged for a closer look

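Of 84 groups of vehicle arrays tested for a single array far from the others, 3 stood out, and chance gives about 1 in 20. HYOU1 on HBL-1 vehicle array 4 was 7.61 against 7.85 to 7.88 on the others, a gap of 0.864 of the group's range. EDEM1 on HBL-1 vehicle array 3 was 8.81 against 9.31 to 9.39, a gap of 0.863 of the range. SEC61B on TMD8 vehicle array 2 was 12.43 against 12.56 to 12.57, a gap of 0.887 of the range, and this gene alone had its TMD8 MI-2 arrays apart from vehicle.

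SPCS2, a signal peptidase subunit, was higher with MI-2 in every pair of equally numbered HBL-1 arrays (0.05, 0.09 and 0.20) and lower in every TMD8 pair (-0.09, -0.27 and -0.11). The mean difference between the lines was -0.27, and it was picked for its opposite signs and not tested as such.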

How the results depend on the processing

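The lack of replicate arrays for z-VRPR-fmk and the dimness of FICD, SEL1L, DERL3, ERO1LB and SSR3 limit what could be measured. Of the values recomputed for single genes, 1980 kept their direction and their side of the threshold, 58 changed sign, 35 lost the threshold and 8 gained it, and of the counts and medians 630 stayed close and 26 did not.

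In HBL-1 scaling arrays to their medians left 12 members above 0, 0 at an unadjusted p under 0.05 and a median of -0.10, with HERPUD1 at -0.0059, XBP1 at -0.084 and DERL3 at -0.096. In TMD8 it left 6 above 0, 0 unadjusted and a median of -0.13, with HSPA5 at -0.060, HERPUD1 at -0.0046 and XBP1 at -0.22. The difference between lines had a median of -0.023 and HERPUD1 at 0.0013. The mean of both lines had 7 above 0, 1 unadjusted and a median of -0.11, with HERPUD1 at -0.0052 and XBP1 at -0.15. For z-VRPR-fmk the median was -0.096 and ARMET -0.046. Between the 2 compounds the median was -0.045 and XBP1 -0.030. Between the lines 4 members were called higher and 5 lower. This scaling also shifted the median of all genes, to -0.33 in HBL-1, -0.18 in TMD8 and 0.15 for the difference between lines, and any further cause was not tested.

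With the authors' values the HBL-1 median was 0.26 and DERL3 in the mean of both lines 0.0013. With trend and robust eBayes 1 member, ARMET, was called in HBL-1 and 1 in the mean of both lines. The cause was not tested.

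With the replicate number as a block 0 members were called after treatment and 18 between lines, against 0% and 38.1% of all genes. It turned XBP1 in TMD8 to -0.017, the line difference of ERN1 to -0.020, and for z-VRPR-fmk SSR3 to -0.15, HSPA5 to 0.011 and XBP1 to 0.054. For MI-2 against z-VRPR-fmk ERN1 became 0.011 and FKBP11 0.069. Members at an unadjusted p under 0.05 went from 21 to 28 in HBL-1, from 4 to 3 in TMD8 and from 18 to 22 in the mean of both lines. They went from 1 to 9 for the line difference and from 11 to 5 for MI-2 against z-VRPR-fmk. In the block fits 3.54% of all genes were higher in HBL-1, 2.79% in TMD8 and 3.17% in the mean of both lines. For MI-2 against z-VRPR-fmk it was 1.8%, and for the line difference 546 of 17565 genes were lower.

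Leaving out both HBL-1 arrays numbered 2, chosen after seeing the data for their low detection, gave ERO1L at 0.030 in HBL-1. It gave 13 unadjusted members there, against 2% of all genes higher.

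Leaving out each array in turn moved the HBL-1 median from 0.26 to 0.40 and its unadjusted count from 13 to 23, with DERL3 from -0.0033 to 0.28. In TMD8 the median ran from 0.024 to 0.19 and the unadjusted count from 0 to 10, with HSPA5 from -0.040 to 0.48, XBP1 from -0.17 to 0.24 and HERPUD1 from 0.077 to 0.58. For the line difference ERN1 ran from -0.24 to 0.22, ERO1L from -0.076 to 0.094, HERPUD1 from -0.38 to 0.12 and SPCS1 from -0.057 to 0.092. In the mean of both lines DERL1 ran from -0.079 to 0.021 and DERL3 from -0.085 to 0.076. For z-VRPR-fmk HERPUD1 ran from -0.44 to 0.12, HSPA5 from -0.23 to 0.16, SEC61A1 from -0.48 to 0.18 and XBP1 from -0.040 to 0.073. The median of MI-2 against z-VRPR-fmk ran from 0.14 to 0.25, SEC61A1 from 0.16 to 0.82 and HERPUD1 from 0.24 to 0.80.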
